A study of Mus musculus with 16 samples.

Results

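The classical p53 target genes followed here are Cdkn1a, Mdm2, Ccng1, Phlda3, Zmat3, Trp53inp1, Eda2r, Sesn2, Gtse1 and Plk2. They were chosen by name, as genes known to be induced by p53, and all 10 were found in a table of 46078 genes and had enough counts to be tested among 16101 genes. Tumours of B16F10-GP, a derivative of the pigmented mouse melanoma line B16F10, had been grown in Matrigel on the flanks of female C57BL/6 mice aged 6 to 8 weeks, and their RNA was sequenced. The 5 Gy group received X-rays at 5 Gy on the right flank on day 10, when tumours were palpable, and the combined group received that dose in the morning and its first injection of QH-II-066 in the evening. The QH-II-066 group was injected intraperitoneally with the compound at 10 mg/kg a day for 7 days from day 10, as was the combined group, and the last group is labelled untreated, although the protocol speaks of vehicle. Each group has 4 libraries, so that 8 irradiated libraries stand against 8 unirradiated ones. The labels used here give neither the day of collection nor the flank that was profiled, and they do not say that each library is a different mouse. The p-values therefore measure the spread between these samples only, which may be partly technical.

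The transcription factor p53 is held low in unstressed cells by the ubiquitin ligase encoded by Mdm2, itself a p53 target, which closes a feedback loop. DNA breaks, such as those made by ionising radiation, activate kinases that free p53 from this ligase, and p53 then binds a site made of a pair of similar half-sites near its target genes. The targets stop the cell cycle, repair DNA, lower oxidative stress or sensitise the cell to death, and in cultured cells many of them are known to rise in pulses after irradiation.

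Promoter letters are shown first, because they tell which of these genes hold a p53-like motif next to their start in the reference genome. RefSeq windows of GRCm38.p6, from 250 bases before to 50 bases after a transcript start, were at hand for 8 of the 10 genes (10 windows), and Zmat3 and Trp53inp1 had none. The p53 half-site was searched by its consensus of 10 bases, which reads the same on both strands, and a full site as a pair of half-sites with a spacer of 0 to 13 bases. Where a mismatch was allowed, it could not fall on the fixed C or the fixed G of the consensus. The following stretches are printed 5′ to 3′ on the strand of the gene, with the matched bases in capitals, for the windows with adjoining half-sites of at most 1 mismatch each, and for the Mdm2 half-site.
Cdkn1a, chr17:29090923-29090952, plus strand: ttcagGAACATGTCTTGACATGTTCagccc
Ccng1, chr11:40755457-40755486, minus strand: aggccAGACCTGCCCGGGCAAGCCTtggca
Gtse1, chr15:85859940-85859969, plus strand: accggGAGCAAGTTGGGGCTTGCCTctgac
Mdm2, chr10:117710925-117710954, minus strand: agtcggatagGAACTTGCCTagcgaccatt
Counted from the transcript start, the Cdkn1a match lies at -51 to -32, the Ccng1 match at -195 to -176 and the Gtse1 match, in the downstream one of 2 windows, at -1 to 19, each with 1 mismatch in all. The Mdm2 half-site has 0 mismatches and lies at -186 to -177. A half-site without mismatch occurred in 4 of the 10 windows, against 8.36% of all 32851 windows, and a full site with at most 1 mismatch in each half-site in 3 of 10, against 2.71%. A half-site with at most 1 mismatch was found in 5 of 10 windows and in 50.9% of all windows, and a full site without mismatch in 1 of 10, in Cdkn1a at -73 to -42, and in 0.0731% of all. Of other motifs searched on both strands, CCAAT was found in 6 of 10 windows (37.4% of all), the cell cycle homology region TTTGAA or TTCGAA in 0 of 10 (19.2%) and the C/EBP-ATF core TGATGNAA in 0 of 10 (3.97%). These matches describe letters only. Windows of a gene overlap in part and are not independent, and sites known outside such windows were not searched.

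The label of the tumours was checked against 10 melanocyte markers, among them Pmel, Tyr and Dct. All 10 were detected in each of the 16 libraries, with summed levels of 16219 to 27250 CPM, the count scaled to library size. Total counts ran from 6994198, in replicate 4 of the combined group, to 40799942. Transcripts of skin epithelium stood out in 5 irradiated libraries (replicates 2 and 4 of the 5 Gy group, and the combined group's replicates 2, 3 and 4), where the 14 markers summed to 345 to 3539 CPM. In the 3 other irradiated libraries that sum was 8.93 to 30.8 CPM and 1 marker (Dsg3) was at 0, and in the 8 unirradiated libraries it was 8.72 to 19.0 CPM with 4 markers (Krt1, Krt15, Dsg3 and Dsc3) at 0. Because every library with skin transcripts was irradiated, values for irradiated against unirradiated tumours are given with and without these 5. Another feature is the gene length slope, which is the regression of a library's log2 CPM deviations on the log2 length of the genes and can follow RNA quality. It was 0.109 ± 0.112 in the 5 Gy group, -0.0883 ± 0.120 in the combined group, -0.0881 ± 0.158 in the QH-II-066 group and 0.0676 ± 0.175 in the untreated group (SD, n = 4 each). In bulk tissue, fewer cells of a type and less RNA per cell cannot be told apart.

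Per kilobase of exon, Cdkn1a was the most abundant of the 10 in each of the 16 libraries, at a mean of 85.9 FPKM, fragments per kilobase of exon scaled to library size. Phlda3 (46.8 FPKM) and Ccng1 (39.6 FPKM) came next and changed places between libraries, so their order does not hold beyond the spread. Gtse1, at 20.4 FPKM, was the fourth in every library. Mdm2 (10.3 FPKM), Plk2 (8.75 FPKM), Trp53inp1 (6.69 FPKM) and Sesn2 (5.94 FPKM) overlapped in rank, between 5 and 8. Zmat3, at 4.49 FPKM, was ninth throughout. Eda2r was the least abundant in all libraries, at 0.124 FPKM. The libraries were made by capture with probes, so this order may also reflect the probes and the exon length, which was not tested. Cdkn1a also varied least, with a coefficient of variation of 9.92% over the 16 libraries on the CPM scale, and Eda2r varied most, at 98.7%, on only 5 to 82 counts per library. No exon of these 10 genes overlapped an exon of another gene in the table, so the unstranded counting does not mix their fragments with those of a neighbour.

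None of the 10 genes was called in irradiated against unirradiated tumours by edgeR's quasi-likelihood test with Benjamini-Hochberg adjustment at 0.05, where 1.4% of the tested genes were called, 226 higher and 0 lower. At an unadjusted p under 0.05 there was 1 member, Eda2r, where 11.4% of tested genes passed. DESeq2 called 1 member (Eda2r) and limma-voom 0. The median log2 fold change of the 10 was -0.05, the same as that of all tested genes, and 3 of 10 lay above 0. No member had all 8 irradiated libraries above all 8 unirradiated ones or below them, a separation seen in 0.087% and 0.00621% of tested genes. The intervals were narrow for most members. The upper end of the 95% interval was 1.09-fold for Cdkn1a, 1.08-fold for Mdm2, 1.14-fold for Ccng1, 1.09-fold for Zmat3, 1.22-fold for Trp53inp1, 1.23-fold for Sesn2 and 1.03-fold for Gtse1. It was 1.38-fold for Phlda3, 1.37-fold for Plk2 and 5.33-fold for Eda2r. Without the libraries with skin transcripts 0 of the 10 were called on the 3 irradiated libraries left, where 0 of 17181 tested genes were called. The median of the 10 was -0.17 in that fit, against -0.05 over all genes, and 4 lay above 0. Trp53inp1, Ccng1 and Zmat3 lay lowest, at -0.43 ± 0.20, -0.32 ± 0.13 and -0.31 ± 0.14. The combined group was then replicate 1 alone, which had the lowest level of these 3 genes and the lowest gene length slope (-0.248) of the 16 libraries. In 5 Gy against untreated, on 2 libraries of 5 Gy without skin transcripts, the 3 genes were at -0.15 ± 0.25, -0.15 ± 0.16 and -0.23 ± 0.17.

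**Figure D1:**
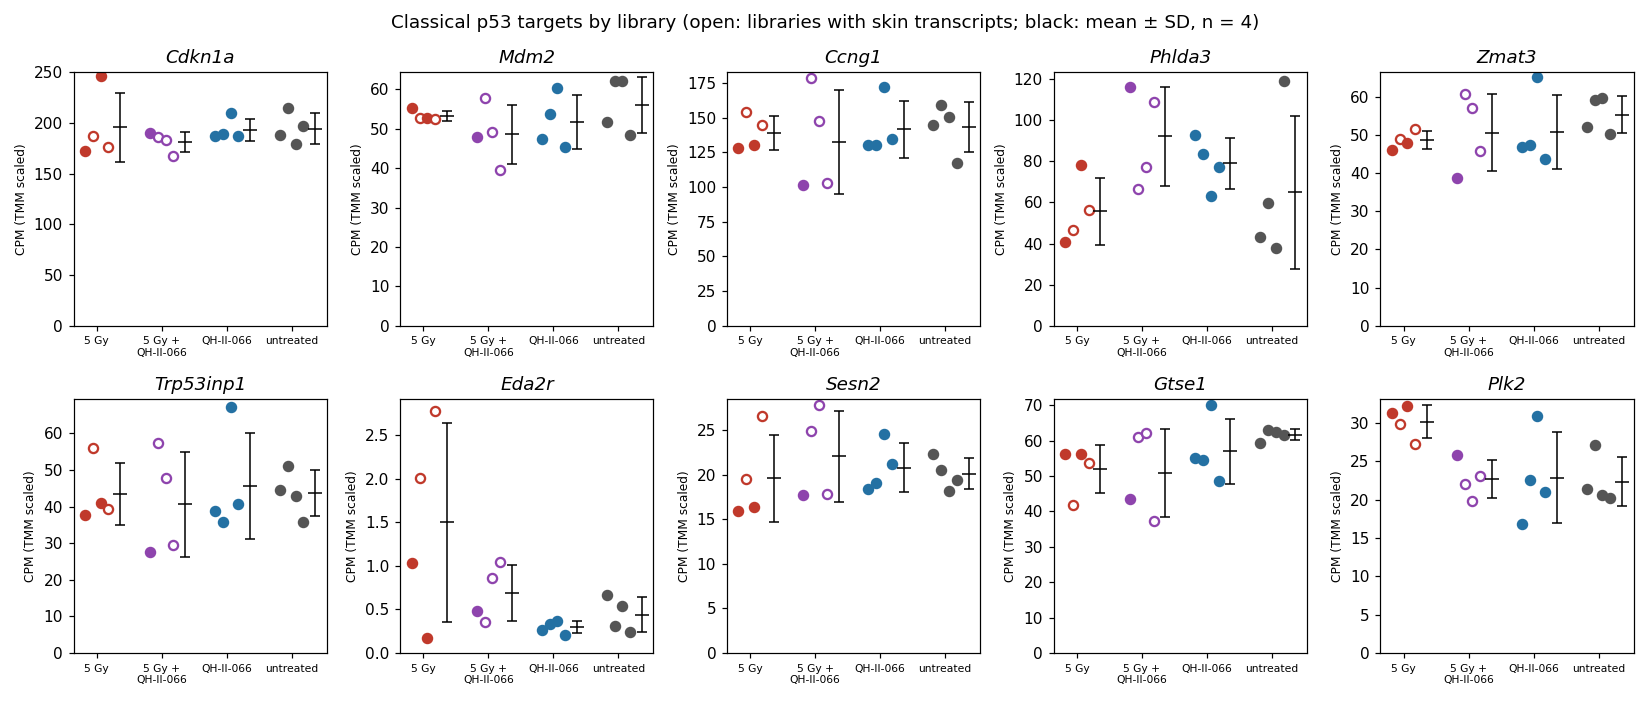
Level of each of the 10 p53 targets in every library, in CPM with TMM scaling, by group. Points are libraries (open points are the 5 with skin transcripts), and black bars give the mean ± SD of 4 libraries. Cdkn1a lies between 167 and 246 CPM in all 16 libraries, and Plk2 in the 5 Gy group lies above the untreated libraries.

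Cdkn1a (ENSMUSG00000023067, mm10 chr17:29090979-29100722, plus strand) encodes p21, the inhibitor of cyclin-dependent kinases through which p53 arrests the cell cycle. The 5 Gy libraries had 172, 187, 246 and 176 CPM, the combined group 190, 186, 183 and 167 CPM, the QH-II-066 group 187, 189, 209 and 187 CPM, and the untreated group 188, 214, 179 and 196 CPM. The groups overlapped, and the highest library, 5 Gy replicate 3, had 1.47 times the level of the lowest of the 16. In irradiated against unirradiated tumours the log2 fold change was -0.04 ± 0.08, given with its SE (edgeR adjusted p = 0.898), and its 95% interval was -0.21 to 0.13. For 5 Gy against untreated the log2 fold change was 0.01 ± 0.11 (adjusted p = 0.977). Without the 5 libraries with skin transcripts the irradiated difference was 0.04 ± 0.13.

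Mdm2 (ENSMUSG00000020184, mm10 chr10:117688888-117710758, minus strand), the ligase and feedback inhibitor of p53, was at 55.2, 52.6, 52.8 and 52.5 CPM after 5 Gy, 47.8, 57.8, 49.1 and 39.6 CPM in the combined group, 47.4, 53.7, 60.3 and 45.5 CPM after QH-II-066, and 51.7, 62.2, 62.2 and 48.5 CPM in untreated tumours. The 4 libraries of 5 Gy lay close together and inside the range of the other groups. Irradiated against unirradiated tumours differed by -0.08 ± 0.09 on the log2 scale (edgeR adjusted p = 0.796, 95% interval -0.27 to 0.11), and by -0.08 ± 0.13 without the libraries with skin transcripts. Ccng1 (ENSMUSG00000020326, mm10 chr11:40748552-40755311, minus strand) encodes cyclin G1, which recruits a phosphatase to the Mdm2 protein and so takes part in the same loop. Its values were 128, 154, 130 and 145 CPM after 5 Gy, 101, 179, 147 and 103 CPM in the combined group, 130, 130, 172 and 134 CPM after QH-II-066, and 145, 159, 150 and 117 CPM in untreated tumours. The combined group held both the lowest and the highest library. For Ccng1 the irradiated difference was -0.07 ± 0.12 (edgeR adjusted p = 0.886, 95% interval -0.32 to 0.19), and -0.32 ± 0.13 without the libraries with skin transcripts (adjusted p = 0.759).

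Phlda3 (ENSMUSG00000041801, mm10 chr1:135766119-135769136, plus strand), whose product competes with the kinase Akt for membrane lipids, had the second widest spread. It stood at 41.0, 46.7, 78.3 and 56.4 CPM in the 5 Gy group, 116, 66.6, 77.1 and 109 CPM in the combined group, 92.7, 83.5, 63.0 and 77.3 CPM in the QH-II-066 group, and 43.2, 59.7, 38.1 and 119 CPM in the untreated group. High and low libraries occurred on both sides of the comparison, and the highest of all was an untreated one. Irradiated against unirradiated tumours differed by -0.00 ± 0.22 on the log2 scale (edgeR adjusted p = 0.997, 95% interval -0.47 to 0.47), and by 0.22 ± 0.34 without the libraries with skin transcripts. The combined group was at 0.73 ± 0.32 against 5 Gy (edgeR adjusted p = 0.233).

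Phlda3 was lower in libraries with a higher gene length slope. Over the 16 libraries its log2 CPM had a Pearson r of -0.91 and a Spearman rho of -0.92 with the slope, and r was again -0.91 without the 2 libraries farthest from the median slope. These are descriptions without p, since the slope and the gene come from the same libraries and share their RNA quality and depth. Phlda3 has a short exon length, of 1559 bases. With the slope as a covariate, a setting added after the data were seen, the log2 fold change for irradiated against unirradiated tumours was 0.08 ± 0.11 (edgeR adjusted p = 0.693), with a smaller SE than the 0.22 without it. For the combined group against 5 Gy the value with that covariate was 0.16 ± 0.17. Mdm2 (r = 0.70), Ccng1 (0.65), Zmat3 (0.60) and Trp53inp1 (0.59), with exon lengths of 3512 to 11435 bases, went the other way. The remaining members did not follow their length closely. They were Plk2 (r = 0.49, 2802 bases), Eda2r (0.47, 5891), Gtse1 (0.34, 2721), Sesn2 (0.19, 3475) and Cdkn1a (-0.07, 2223). The genes whose pattern over the 16 libraries was nearest to Phlda3 were Dnttip1 (r = 0.96), Paxx (0.95) and Aprt (0.94), among 11883 genes whose log2 CPM averaged 1 or more.

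**Figure D2:**
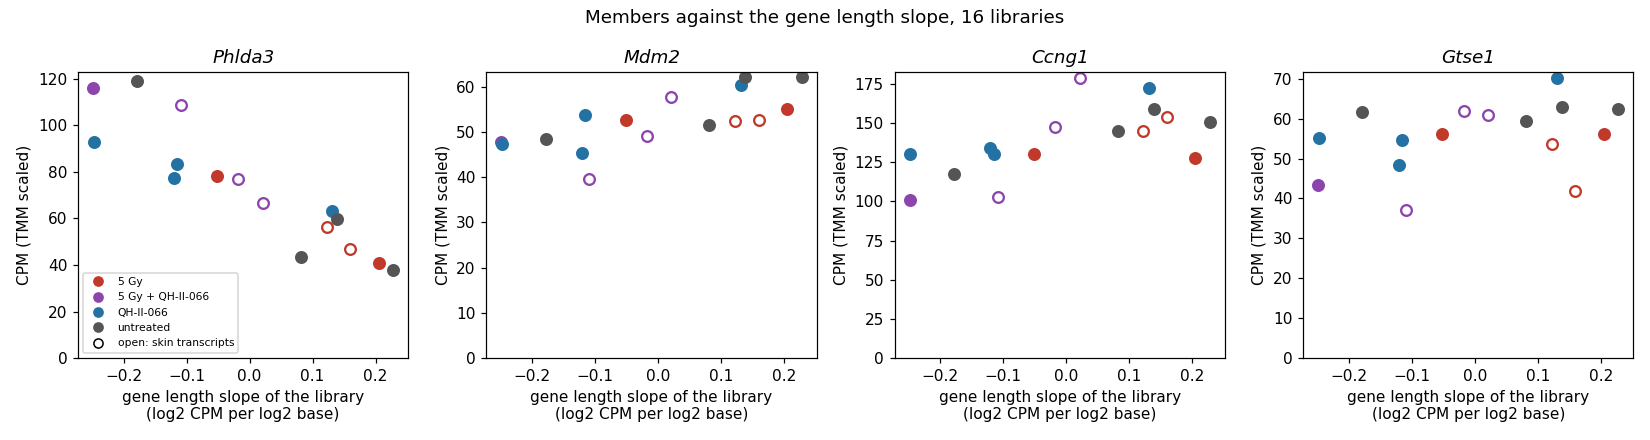
Level of Phlda3, Mdm2, Ccng1 and Gtse1 (CPM, from 0) against the gene length slope of each library (log2 CPM per log2 base of gene length). Each point is 1 of the 16 libraries, coloured by group and open where skin transcripts were present. Phlda3 is lower at higher slopes (r = -0.91), Mdm2 and Ccng1 are higher there (0.70 and 0.65), and Gtse1 is scattered (0.34).

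Gtse1 (ENSMUSG00000022385, mm10 chr15:85859707-85876572, plus strand) encodes a microtubule protein of G2 and S phase that carries p53 out of the nucleus after DNA damage. In the 5 Gy group it was at 56.1, 41.8, 56.2 and 53.7 CPM, in the combined group at 43.4, 60.9, 62.0 and 37.2 CPM, in the QH-II-066 group at 55.0, 54.6, 70.1 and 48.5 CPM and in the untreated group at 59.4, 63.0, 62.4 and 61.7 CPM. All 4 libraries of 5 Gy lay below all 4 untreated ones, a separation in this direction seen in 3.13% of the tested genes. The log2 fold change of 5 Gy against untreated was -0.25 ± 0.16 and was not called (edgeR adjusted p = 0.537), and that of irradiated against unirradiated tumours was -0.20 ± 0.11 (adjusted p = 0.561, 95% interval -0.45 to 0.04). The values were -0.13 ± 0.14 and -0.26 ± 0.12 in these comparisons without the libraries with skin transcripts. Gtse1 varied with the score of 20 mitosis genes (r = 0.73, 0.66 without the 2 libraries farthest from the median score) and with the melanocyte score (0.72 and 0.64) over the 16 libraries, and against the fibroblast score (-0.65). Its nearest genes were Arfip2 (r = 0.93), Itfg2 (0.91) and Cers2 (0.90). Of the mitosis list, 0 of 20 genes were called in irradiated against unirradiated tumours, with 0 at an unadjusted p under 0.05, and Mki67, the proliferation marker, had a log2 fold change of -0.06 ± 0.09.

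Plk2 (ENSMUSG00000021701, mm10 chr13:110395044-110400844, plus strand) encodes a polo-like kinase that p53 and serum both induce. It was at 31.3, 29.9, 32.2 and 27.3 CPM in the 5 Gy group, 25.9, 22, 19.8 and 23.1 CPM in the combined group, 16.8, 22.6, 31 and 21 CPM in the QH-II-066 group and 21.5, 27.1, 20.6 and 20.3 CPM in the untreated group. Every 5 Gy library lay above every untreated library, if only just for the closest pair (27.3 against 27.1 CPM), and above every library of the combined group. A separation of this kind was found in 5.97% of tested genes for 5 Gy above untreated and in 3.97% for the combined group below 5 Gy. The log2 fold changes were 0.43 ± 0.16 for 5 Gy against untreated (edgeR adjusted p = 0.191, 95% interval 0.09 to 0.78) and -0.41 ± 0.16 for the combined group against 5 Gy (adjusted p = 0.217), and neither was called. The interaction of radiation and drug, the difference of combined from 5 Gy less that of QH-II-066 from untreated, was -0.44 ± 0.23 (adjusted p = 0.783).

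Stromal genes moved with Plk2. Its nearest genes were Adam19 (r = 0.87), Lrrc32 (0.85) and Runx1 (0.83). Its r was 0.64 with the macrophage score and 0.60 with the fibroblast score, against -0.65 with the melanocyte score. Without the 2 libraries farthest from the median of each score these were 0.58, 0.45 and -0.59. The 10 fibroblast and matrix markers summed to 2009 to 4417 CPM in the 5 Gy group, 673 to 2316 CPM in the combined group, 647 to 1467 CPM in the QH-II-066 group and 486 to 842 CPM in the untreated group, with 0 markers at 0. The 10 macrophage and monocyte markers summed to 1168 to 2272 CPM, 765 to 1767 CPM, 842 to 1372 CPM and 437 to 1259 CPM in the same groups. The part of these cells in the Plk2 values was not tested. Without the libraries with skin transcripts, Plk2 was at 0.51 ± 0.22 for 5 Gy against untreated (edgeR adjusted p = 0.801), on 2 libraries of 5 Gy.

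Sesn2, Trp53inp1 and Zmat3 belong to the stress-relief and growth-control arm of the response. Sesn2 (ENSMUSG00000028893, mm10 chr4:132492032-132510501, minus strand), whose product dampens mTORC1 signalling and is also induced by ATF4, was at 15.9, 19.5, 16.4 and 26.6 CPM after 5 Gy, 17.7, 24.9, 27.8 and 17.9 CPM in the combined group, 18.4, 19.1, 24.5 and 21.2 CPM after QH-II-066, and 22.3, 20.5, 18.2 and 19.4 CPM in untreated tumours. The irradiated libraries spanned a wider range than the unirradiated ones and enclosed them. The log2 fold change was 0.03 ± 0.13 (edgeR adjusted p = 0.963, 95% interval -0.25 to 0.30), and -0.27 ± 0.13 without the libraries with skin transcripts. Its nearest genes were Mgll (r = 0.78), Chac1 (0.77), which degrades glutathione and is a target of ATF4, and Adhfe1 (0.77). Of 16 genes of the integrated stress response, 0 were called in irradiated against unirradiated tumours and 0 passed an unadjusted p under 0.05. Atf4 itself had a log2 fold change of -0.02 ± 0.20.

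Trp53inp1 (ENSMUSG00000028211, mm10 chr4:11156431-11174379, plus strand), which encodes a stress protein of the nucleus and of autophagosomes, was at 37.7, 55.9, 41.0 and 39.3 CPM after 5 Gy, 27.7, 57.3, 47.9 and 29.5 CPM in the combined group, 38.7, 35.9, 67.3 and 40.8 CPM after QH-II-066, and 44.6, 51.2, 43.0 and 35.9 CPM in untreated tumours. The groups overlapped, and the highest library of the 16 was QH-II-066 replicate 3. Zmat3 (ENSMUSG00000027663, mm10 chr3:32334792-32366014, minus strand), a zinc finger protein that binds RNA, was at 45.9, 49.0, 48.0 and 51.4 CPM after 5 Gy, 38.6, 60.6, 57.1 and 45.8 CPM in the combined group, 46.9, 47.4, 65.1 and 43.8 CPM after QH-II-066, and 52.0, 59.2, 59.6 and 50.2 CPM in untreated tumours. All 4 groups of Zmat3 overlapped. The log2 fold changes for irradiated against unirradiated tumours were -0.09 ± 0.17 for Trp53inp1 (edgeR adjusted p = 0.899) and -0.10 ± 0.11 for Zmat3 (adjusted p = 0.793). Without the libraries with skin transcripts they were -0.43 ± 0.20 and -0.31 ± 0.14 (adjusted p = 0.782 and 0.767).

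Eda2r (ENSMUSG00000034457, mm10 chrX:97333840-97377216, minus strand), a receptor of the tumour necrosis factor family for ectodysplasin A2, differed most in size. It was at 1.03, 2.01, 0.17 and 2.78 CPM in the 5 Gy group, 0.49, 0.35, 0.87 and 1.04 CPM in the combined group, 0.26, 0.33, 0.36 and 0.21 CPM in the QH-II-066 group and 0.67, 0.31, 0.54 and 0.25 CPM in the untreated group. The 5 Gy group held both the highest libraries, replicates 4 and 2, and the lowest of all 16, replicate 3 with 5 counts. The log2 fold change for irradiated against unirradiated tumours was 1.46 ± 0.45 (95% interval 0.50 to 2.41), with an unadjusted p of 0.00532 and an edgeR adjusted p of 0.121, so it was not called. Without 5 Gy replicate 3, an irradiated library without skin transcripts, it was 1.64 ± 0.34 and passed (edgeR adjusted p = 0.0210). In that fit 504 of 16504 tested genes were called higher, and no other fit without a single library called Eda2r. DESeq2 gave 1.49 ± 0.48 (adjusted p = 0.0422), and called 794 genes higher and 5 lower, against 226 and 0 with edgeR. For 5 Gy against untreated the log2 fold change was 1.75 ± 0.62 (edgeR adjusted p = 0.161). Without replicate 3 it was 2.12 ± 0.48 (edgeR adjusted p = 0.0296), in a fit that called 731 genes higher and 8 lower. It was 0.43 ± 0.67 in that comparison without the libraries with skin transcripts, on 2 libraries of 5 Gy. Held at the skin score it was 0.53 ± 0.61, and held at the skeletal muscle score 1.03 ± 0.69.

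Skin and skeletal muscle transcripts moved with Eda2r. Its 2 highest libraries were the 5 Gy libraries with skin transcripts. Over the 16 libraries its log2 CPM had r = 0.73 with the skin score. This was 0.48 without the 2 libraries farthest from the median score. With the skeletal muscle score r was 0.61, and again 0.61 without the 2 libraries farthest from the median of that score. The genes nearest to Eda2r were Cachd1 (r = 0.88), Tnfrsf19 (0.86) and Scel (0.84), the last encoding sciellin of the cornified envelope of epidermis. Without the 5 libraries with skin transcripts the irradiated difference of Eda2r was 0.58 ± 0.54 (edgeR adjusted p = 0.846), on 3 irradiated libraries, while a fit with the skin score as a covariate gave 0.31 ± 0.50. The part of skin in the Eda2r values beyond these fits was not tested.

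**Figure D3:**
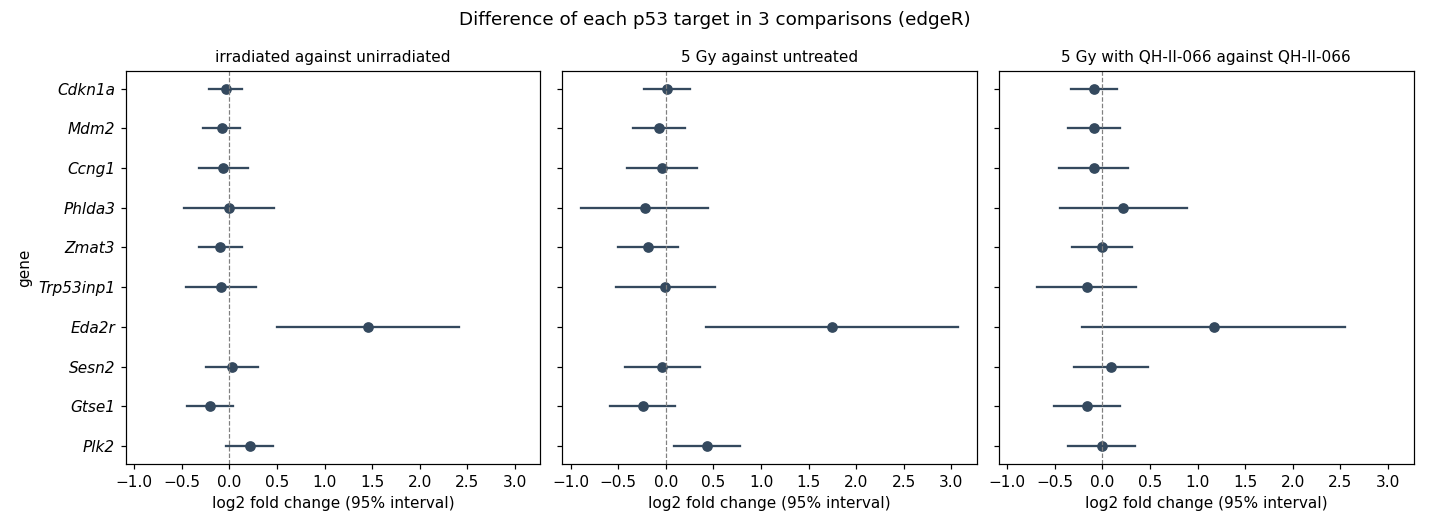
Log2 fold change of each of the 10 genes with its 95% interval (edgeR), for irradiated against unirradiated tumours, 5 Gy against untreated, and 5 Gy with QH-II-066 against QH-II-066. The interval of Eda2r is above 0 in the first 2 panels (1.46 and 1.75) and that of Plk2 in the second (0.43). The other intervals include 0, and no gene passed the adjusted threshold.

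Radiation was compared within the drug-free and within the drug-treated tumours as well. In 5 Gy against untreated, 0 of the 10 were called by edgeR, where 1.26% of tested genes were called (202 higher or 1.25%, and 1 lower or 0.00621%), and 2 members, Eda2r and Plk2, had an unadjusted p under 0.05, where 15.1% of genes did. In the combined group against QH-II-066, 0 of 10 were called and 0 had an unadjusted p under 0.05, where 0% and 3.65% of tested genes did. No member had its libraries of that pair of groups apart, as 1.29% (higher) and 0.621% (lower) of tested genes had. The log2 fold changes there were -0.09 ± 0.11 for Cdkn1a, -0.09 ± 0.13 for Mdm2, 1.17 ± 0.65 for Eda2r and -0.01 ± 0.16 for Plk2. Eda2r was at 0.73 ± 0.85 there without the libraries with skin transcripts, on 1 library of the combined group. It was at 0.08 ± 0.60 in a fit that held the skin score and at 0.77 ± 0.64 in one that held the muscle score. The combined group against untreated had 0 of 10 called (0% of genes) and 0 at an unadjusted p under 0.05 (16.2%), and shares the untreated libraries with 5 Gy against untreated. Its groups were apart for 0 members, against 2.53% of genes higher and 1.69% lower. The largest differences there were 0.57 ± 0.64 for Eda2r and 0.50 ± 0.31 for Phlda3. The first turned to -0.57 ± 0.65 in a fit that held the skin score and was 0.16 ± 0.62 in one that held the muscle score. Without the libraries with skin transcripts it was 0.14 ± 0.86. The second was 0.14 ± 0.16 with the gene length slope as a covariate.

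The drug alone left 0 of the 10 genes called. QH-II-066 against untreated had 0 members called (0% of genes) and 0 at an unadjusted p under 0.05 (8.17%). The groups were apart for 0 members, against 1.37% of genes higher and 1.55% lower, with Cdkn1a at -0.01 ± 0.11, Mdm2 at -0.12 ± 0.13, Phlda3 at 0.28 ± 0.31 and Eda2r at -0.60 ± 0.64. Phlda3 turned to -0.05 ± 0.16 with the gene length slope as a covariate. For Phlda3, limma-voom with sample weights gave 0.64 ± 0.19 and called it (adjusted p = 0.0272), in a comparison where that tool called 1887 genes higher and 2760 lower. The combined group against 5 Gy had 0 called by edgeR (0%) and 2 members, Phlda3 and Plk2, at an unadjusted p under 0.05 (19.5%). Members with groups apart in that comparison were 0 higher, against 4.45% of genes, and 1 lower, Plk2, against 3.97% of genes. The interaction had 0 called (0%) and 0 at an unadjusted p under 0.05 (6.96%). Apart from this call of Phlda3 and that of Eda2r by DESeq2 in irradiated against unirradiated tumours, DESeq2 and limma-voom called 0 members in the 7 comparisons.

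Some of the 10 genes varied together from library to library. Ccng1 and Trp53inp1 had a Pearson r of 0.94 and were each other's nearest gene among the 11883. The r was 0.96 in the 8 irradiated libraries and 0.93 in the 8 unirradiated ones, 0.95 without the libraries with skin transcripts (n = 11), 0.91 with the gene length slope removed, 0.94 with group means removed and 0.95 without QH-II-066 replicate 3. Zmat3 joined them, with r = 0.84 to Ccng1 and 0.81 to Trp53inp1, and Mdm2 had r = 0.75 with Ccng1. The nearest genes to Zmat3 were Tnfrsf10b (r = 0.88), a death receptor that p53 is known to induce, Src (0.88) and Bbs7 (0.85). Among those nearest to Mdm2 were Srfbp1 (0.95) and Eif1a (0.92). Cdkn1a had r = 0.20 to Ccng1, 0.18 to Zmat3 and 0.32 to Trp53inp1 over all 16 libraries. These were 0.08, -0.04 and 0.16 in the 8 irradiated libraries and 0.48, 0.52 and 0.65 in the 8 unirradiated ones, a difference that was not tested. With only QH-II-066 replicate 3 left out of all libraries they were 0.11, 0.06 and 0.21. The genes nearest to Cdkn1a were less alike, with Gm12715 at 0.71, Tatdn2 at 0.70 and Pex5 at 0.69. Of the 45 pairs among the 10 genes, 29 had r above 0, with a median of 0.20 and a range of -0.65 to 0.94. Phlda3 had r = -0.65 to Mdm2, -0.62 to Ccng1 and -0.44 to Zmat3, and with the gene length slope removed these were -0.03, -0.09 and 0.34. The points share library, depth and RNA quality, and these correlations are descriptions with no p.

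**Figure D4:**
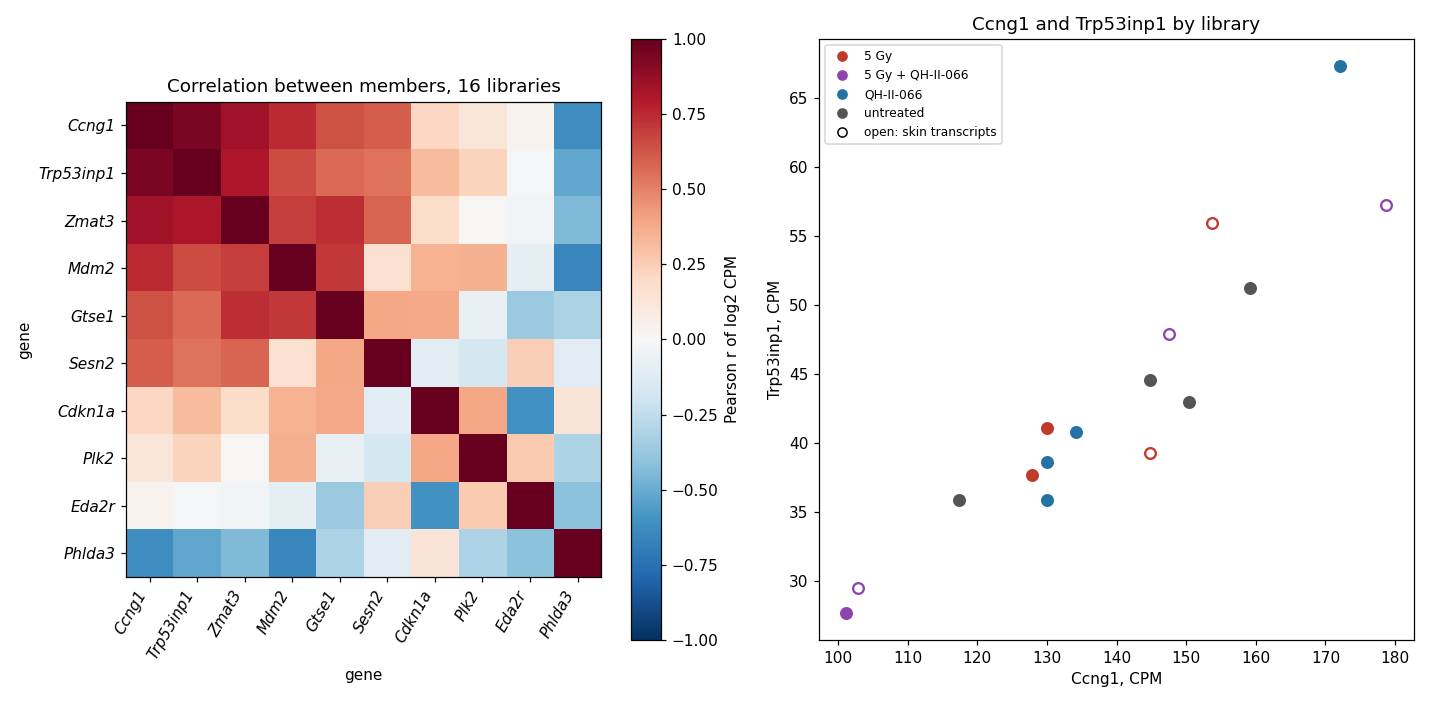
Left, Pearson r of log2 CPM between each pair of the 10 genes over 16 libraries, on a colour scale of -1 to 1. Right, Trp53inp1 against Ccng1 (CPM) in each library, coloured by group and open where skin transcripts were present. The pair lies along 1 line in all groups (r = 0.94), and the r of Phlda3 with Mdm2, -0.65, was -0.03 with the gene length slope removed.

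A wider list of p53-induced genes was read in the same way. Of 30 further targets, all of them tested, 1 was called higher and 0 lower in irradiated against unirradiated tumours, where 1.4% of all tested genes were called. At an unadjusted p under 0.05 there were 5 of the 30, where 11.4% of all tested genes passed, and 12 lay above 0. Their median log2 fold change was -0.06, against -0.05 over all tested genes. The one called was Perp, a p53 target and a protein of desmosomes in skin, at 90.6 ± 112 CPM in irradiated and 0.808 ± 0.248 CPM in unirradiated tumours (SD, n = 8 each), or 6.75 ± 1.30 higher on the log2 scale (edgeR adjusted p = 0.0400). After 5 Gy, Perp stood at 319 and 136 CPM where skin transcripts were present and at 0.569 and 0.439 CPM where they were not. Without the libraries with skin transcripts it differed by 0.21 ± 0.34 (edgeR adjusted p = 0.904). In 5 Gy against untreated 0 of the 30 were called (1.26% of all tested genes), with 6 at an unadjusted p under 0.05 (15.1% of all tested genes). Bax, the pore-forming death effector, was at 149 ± 47.9 CPM in irradiated and 165 ± 54 CPM in unirradiated tumours, a difference of -0.18 ± 0.19 on the log2 scale (edgeR adjusted p = 0.782).

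The 4 others with an unadjusted p under 0.05 were not called, and they were picked out after their values were seen. Btg2, an antiproliferative gene, was at 10.7 ± 3.95 CPM in irradiated and 6.52 ± 1.92 CPM in unirradiated tumours, differing by 0.73 ± 0.22 on the log2 scale (edgeR adjusted p = 0.111). Pmaip1, which encodes the BH3-only protein Noxa, was at 3.53 ± 1.5 and 2.04 ± 0.74 CPM in these groups, a difference of 0.79 ± 0.30 on that scale (edgeR adjusted p = 0.256). Without the libraries with skin transcripts they were at 0.45 ± 0.25 and 0.67 ± 0.35 (adjusted p = 0.795 for both). Trp73, a relative of p53, was at 0 to 2.66 CPM in irradiated and 0 to 0.0769 CPM in unirradiated tumours, with a fitted log2 fold change of 6.02 ± 1.55 (edgeR adjusted p = 0.0789) that depends on the handling of zeros, and it had 0 counts in each irradiated library without skin transcripts. Tigar, a regulator of glycolysis, was at 43.1 ± 1.66 CPM in irradiated and 48.2 ± 5.06 CPM in unirradiated tumours, a difference of -0.16 ± 0.07 on the log2 scale (edgeR adjusted p = 0.357).

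**Figure D5:**
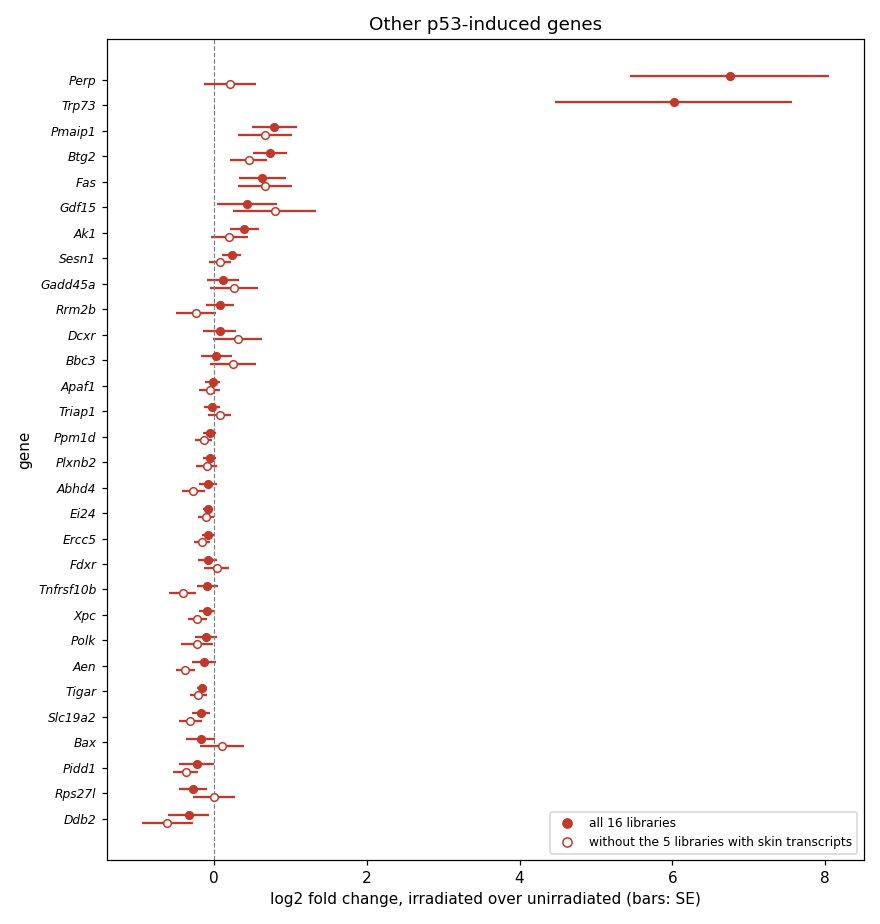
Log2 fold change (± SE, edgeR) of 30 other p53-induced genes in irradiated against unirradiated tumours, in all 16 libraries (filled) and without the 5 with skin transcripts (open). Perp is at 6.75 with all libraries and at 0.21 without those 5, Trp73 was not tested in the smaller set, and most of the others lie near 0.

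Upstream of the targets, 0 of 12 genes for p53 and its regulators (the kinases Atm, Atr and Chek2, the Mdm2 partner Mdm4 and others) were called in irradiated against unirradiated tumours, with 0 at an unadjusted p under 0.05 and 1 above 0. Trp53, the gene of p53, was at 89.2 ± 17.1 CPM in irradiated and 99.4 ± 8.7 CPM in unirradiated tumours (SD, n = 8 each), which differed by -0.16 ± 0.11 on the log2 scale (edgeR adjusted p = 0.660). The values of Trp53 in the combined group were 68.2, 101, 105 and 57.8 CPM, with the 2 lowest libraries of the 16 among them. Trp53 was at -0.30 ± 0.10 without the libraries with skin transcripts (edgeR adjusted p = 0.549). In 5 Gy against untreated 0 of the 12 were called, and 0 had an unadjusted p under 0.05. The combined group against untreated had 0 called by edgeR and 4 of 12 at an unadjusted p under 0.05 (Trp53, Kat5, Trp53bp1 and Prkdc), where 16.2% of tested genes passed, with 0 above 0 and a median log2 fold change of -0.34. In QH-II-066 against untreated 0 of the 12 were called by edgeR and 2 (Hipk2 and Trp53bp1) had an unadjusted p under 0.05, where 8.17% of tested genes did, with 0 above 0 and a median of -0.31. Over all tested genes these medians were -0.00 and 0.01. The gene length slope also differed, averaging -0.0883 in the combined, -0.0881 in the QH-II-066 and 0.0676 in the untreated group. The score of the 12 genes was highest in untreated replicate 3 (5.27, slope 0.228) and lowest in replicate 1 of the combined group (4.23, slope -0.248). With the slope as a covariate, Trp53 was at -0.25 ± 0.15 in the combined group against untreated. The part of the slope in these medians was not tested. The p53 protein is controlled mainly after translation, so its mRNA level says little of its activity.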

How the data were processed

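Tumour RNA was measured in 16 libraries. It was prepared by transcriptome capture, which enriches coding fragments with probes, and sequenced on an Illumina instrument, per the labels' protocols. The submitters' processing notes name STAR 2.4.1a, featureCounts, edgeR and mm10. Per the file headers, the authors counted fragments over exons with featureCounts 1.6.0 and no strand option, and the deposited table holds these raw counts per gene. The members and the gene lists were chosen with earlier results of these data known. Groups come from the sample titles. Counts were fitted in 1 model of 4 group means with edgeR 4.0.16 in R 4.3.3 (filterByExpr, TMM scaling, robust quasi-likelihood test, two-sided). The p-values were adjusted over all 16101 tested genes after Benjamini and Hochberg, and a gene was called at 0.05. Standard errors (SE) and 95% intervals come from that fit. Scores are mean log2 CPM of a list with a prior count of 2. Of 46078 genes 45143 had a symbol. All members and the genes of the other lists past the threshold are named (at most 4 a list), with Trp53, Bax, Mki67 and Atf4. For each member the 3 genes with the highest Pearson r are given too, except 1 that is not reported here. The skin, muscle and stroma lists are named with some of the members they move with, not with all. Not named above, among others, were Cdkn1a with the muscle score (r = -0.52) and Zmat3 with the fibroblast (-0.59) and macrophage (-0.52) scores. Alternatives used DESeq2 1.42.0 and limma 3.58.1 (voom), other scaling, filters and covariates, a replicate block, and fits without single libraries or without the 5 with skin transcripts. Counts carry no molecular identifiers, so intervals cover the spread between libraries. The steps were tested on simulated data.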

Additional observations from a re-analysis of the deposited data

Results flagged for a closer look

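Within groups of 4, a library was set apart where its gap to the nearest other library was above Dixon's 95% critical value, as a share of the group's range. The 10 genes in 4 groups gave 40 such groups, of which chance sets apart about 1 in 20, and 5 were set apart. Replicate 3 of QH-II-066 was set apart as the highest of its group for 4 genes, and was also the highest for 5 others, all but Phlda3. It had 209 CPM of Cdkn1a (nearest library 189 CPM), 172 CPM of Ccng1 (nearest 134 CPM), 65.1 CPM of Zmat3 (nearest 47.4 CPM) and 67.3 CPM of Trp53inp1 (nearest 40.8 CPM). Ccng1, Zmat3 and Trp53inp1 vary together over the libraries, so these are not separate events. The library also had the highest gene length slope of its group, 0.131, and the highest adipocyte score, 6.65, and the part of either was not tested. Replicate 1 of 5 Gy had 55.2 CPM of Mdm2, and the nearest library had 52.8 CPM.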

How the results depend on the processing

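The count of the 10 members called was 0 in each of the 7 comparisons, and it moved under 3 of 29 alternatives. In irradiated against unirradiated tumours it was 1 (Eda2r) with DESeq2 and ranged from 0 to 1 over fits that each left out a library, with 1 without 5 Gy replicate 3. In 5 Gy against untreated it likewise ranged from 0 to 1, with 1 (Eda2r) without 5 Gy replicate 3. In QH-II-066 against untreated it was 1 (Phlda3, log2 fold change 0.64 ± 0.19) with limma-voom and sample weights. The cause was not tested. Of 2002 values of single members under alternatives, 205 had the other sign while uncalled in both fits, 18 of them for Phlda3 in irradiated against unirradiated tumours, where it lay closest to 0. With the replicate block the count was 0 in each comparison. Of 24 pairs of libraries with the same replicate number, 12 correlated above 0.1 in their deviations (range -0.43 to 0.48). Pairs with different numbers ranged from -0.67 to 0.69. These ranges cannot decide whether the numbers pair the libraries, which was not tested further. Calls over all genes rested on the setting. In irradiated against unirradiated tumours 226 genes were higher, against 34 with the stricter filter (CPM of 1 in 8 libraries), 3 with limma-voom, 794 (and 5 lower) with DESeq2, 615 (and 2 lower) at an adjusted p under 0.1, 0 with no filter, with each covariate or without the libraries with skin transcripts, and 0 to 504 with single libraries left out. In 5 Gy against untreated 202 were higher and 1 lower, against 703 and 99 with limma-voom, 1180 and 44 with DESeq2, 776 and 12 at an adjusted p under 0.1, 14 and 0 with the skin score, 2 and 0 with the muscle score, 47 and 1 with the skin score and the slope, 22 and 0 without the skin libraries, and 0 to 731 higher with single libraries left out. DESeq2 called 47 higher and 1 lower in the combined group against QH-II-066 and 190 and 16 in that group against untreated, 75 and 48 against 5 Gy, 13 and 3 in QH-II-066 against untreated and 3 and 56 in the interaction, where edgeR called 0. In the last 3 of these limma-voom called 15 and 54, 1887 and 2760, and 57 and 440. A fit of only the groups compared is the same as the fit given for irradiated against unirradiated tumours and the interaction. Eda2r, with 5 to 82 counts a library, is the member that depth limits most. The half-site with 1 mismatch was in 5 of 10 windows, against 4 without.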

Other observations

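In the 11 libraries without skin transcripts, Zmat3 and Gtse1 had a Pearson r of 0.94 in log2 CPM, against 0.74 over all 16 libraries. Cdkn1a and Eda2r ran against each other over the 16 libraries (r = -0.61), with -0.69 in the 8 irradiated and -0.26 in the 8 unirradiated libraries. Sesn2 and Plk2 had r = -0.67 in the irradiated libraries and 0.73 in the unirradiated ones, and the difference was not tested. Among the unirradiated libraries, QH-II-066 replicate 3, flagged above, was the highest for both genes (24.5 and 31.0 CPM), and its part in that value was not tested. These points share library, depth and RNA quality, the pairs were picked from 45 after their values were seen, and no p is given.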
